A study of Mus musculus with 4 samples.

Results

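Cytochrome P450 families 2 and 3 were described by open chromatin in whole embryonic mouse lung. The members were all 57 protein-coding genes whose symbols start with Cyp2 or Cyp3 followed by a letter, of 21887 protein-coding genes in all. The study measured chromatin accessibility with ATAC-seq, in which the Tn5 transposase cuts and tags accessible DNA, in 4 libraries of wild-type lung at embryonic day E15.5 (replicates 1 to 4). There was 1 group and no treatment or mutant. The labels did not say whether the libraries came from separate embryos or litters, so each SD gives only the spread between these libraries.

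P450 enzymes of families 2 and 3 are haem proteins of the endoplasmic reticulum that insert oxygen into their substrates with electrons passed on by P450 oxidoreductase. Families 2 and 3 handle most drugs and foreign compounds as well as arachidonic acid, steroids and vitamin D, and many of their genes are best known from the liver, where nuclear receptors control them. In rodents these genes have multiplied into tandem clusters of close copies. In the lung, Cyp2f2 is the club cell enzyme that turns naphthalene into a toxic epoxide, and Cyp2s1 is an enzyme of epithelia outside the liver that responds to dioxin through the aryl hydrocarbon receptor.

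The files held the authors' peak calls, between 134503 and 211678 peaks per library on the assembled chromosomes. Replicate 1 had the fewest peaks and the highest median fold enrichment, 8.99 against 3.73 to 3.90 in the others. Its peak names contain a French term meaning fresh, where the other lists have the term for frozen, although the labels describe all lungs as frozen. All 6 lung epithelial and all 6 lung mesenchymal markers checked had a peak at a gene end in every library, where 66.7% of all protein-coding genes had one. Of other sets, 3 of 4 endothelial, 2 of 4 heart muscle, 2 of 3 neural and 1 of 4 blood and immune markers did. Of 6 liver markers only Apoa2 did, and Alb, Cps1 and Ttr had no such peak in any library, where 22.3% of all genes had none. In replicates 2 and 3 the percentile of Apoa2 was also that of the receptor gene Nr1i3, and whether both genes share a peak was not examined. In whole lung, a site open in few cells and a site weakly open in many cannot be told apart.

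Most of the P450 genes had no open site at either end. A gene end was called open where a peak touched the DNA within 1 kb of an annotated end of the gene. Of the 57 genes, 9 (15.8%) had a gene-end peak in all 4 libraries, where 66.7% of all protein-coding genes had one. At 45 of the 57 (78.9%) no library showed such a peak, against 22.3% of all genes, and 3 genes had one in 1 to 3 libraries, against 11% of all genes. By library the number with a gene-end peak was 10, 10, 12 and 11 in replicates 1 to 4, where 69.2%, 73.2%, 73.9% and 73.8% of all genes had one. The low count was thus seen in each library, replicate 1 included.

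The counts were also taken under other rules, beside all genes under the same rule. Peaks with a −log10 q of 5 or more left 9 members open, against 63.7% of all genes, and 47 with no peak, against 27%. Lists of equal length gave 9 (all genes 65.8%) and 46 (24.4%). Windows of 0.5 kb gave 7 (63.5%), without Cyp2u1 and Cyp2w1, and 46 with no peak (24.4%). Windows of 2.5 kb gave 11 (71.6%), with Cyp2a22 and Cyp2c23 added, and 40 with no peak (18.7%). With the summit required in the window there were 9 (60.5%) and 45 (23.6%), and without peaks wider than 10 kb 9 (65.3%) and 45 (22.3%). A peak in at least 3 of 4 libraries was found at 11 members (71.5%). Without replicate 1, 10 members were open (70.4%), Cyp2c23 being added, and 45 had no peak (23.1%). Without replicate 2, 10 were open (67.1%), Cyp2j13 being added, and 45 had none (23.1%). Without replicate 3 there were 9 (67%) and 46 (23.3%), and without replicate 4 there were 9 (67.1%) and 45 (23.3%). Members thus stayed far below all genes in every one of these settings.

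The 9 open genes were Cyp2s1, Cyp2b19, Cyp2f2 and Cyp2t4 of the chromosome 7 cluster, Cyp2d22, Cyp2j9, and the lone genes Cyp2r1, Cyp2u1 and Cyp2w1. None of the 9 Cyp3a genes and none of the 15 Cyp2c genes was among them. Cyp2c23 and Cyp2j13 had a gene-end peak in 3 libraries and Cyp2d10 in 1. These were not the same site in each library. The Cyp2c23 peaks did not overlap, at the lower end in replicates 2 and 4 and the upper end in replicate 3. The Cyp2j13 peak of replicate 4, at 96076663 to 96076878, did not overlap those of replicates 1 and 3.

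**Figure D1:**
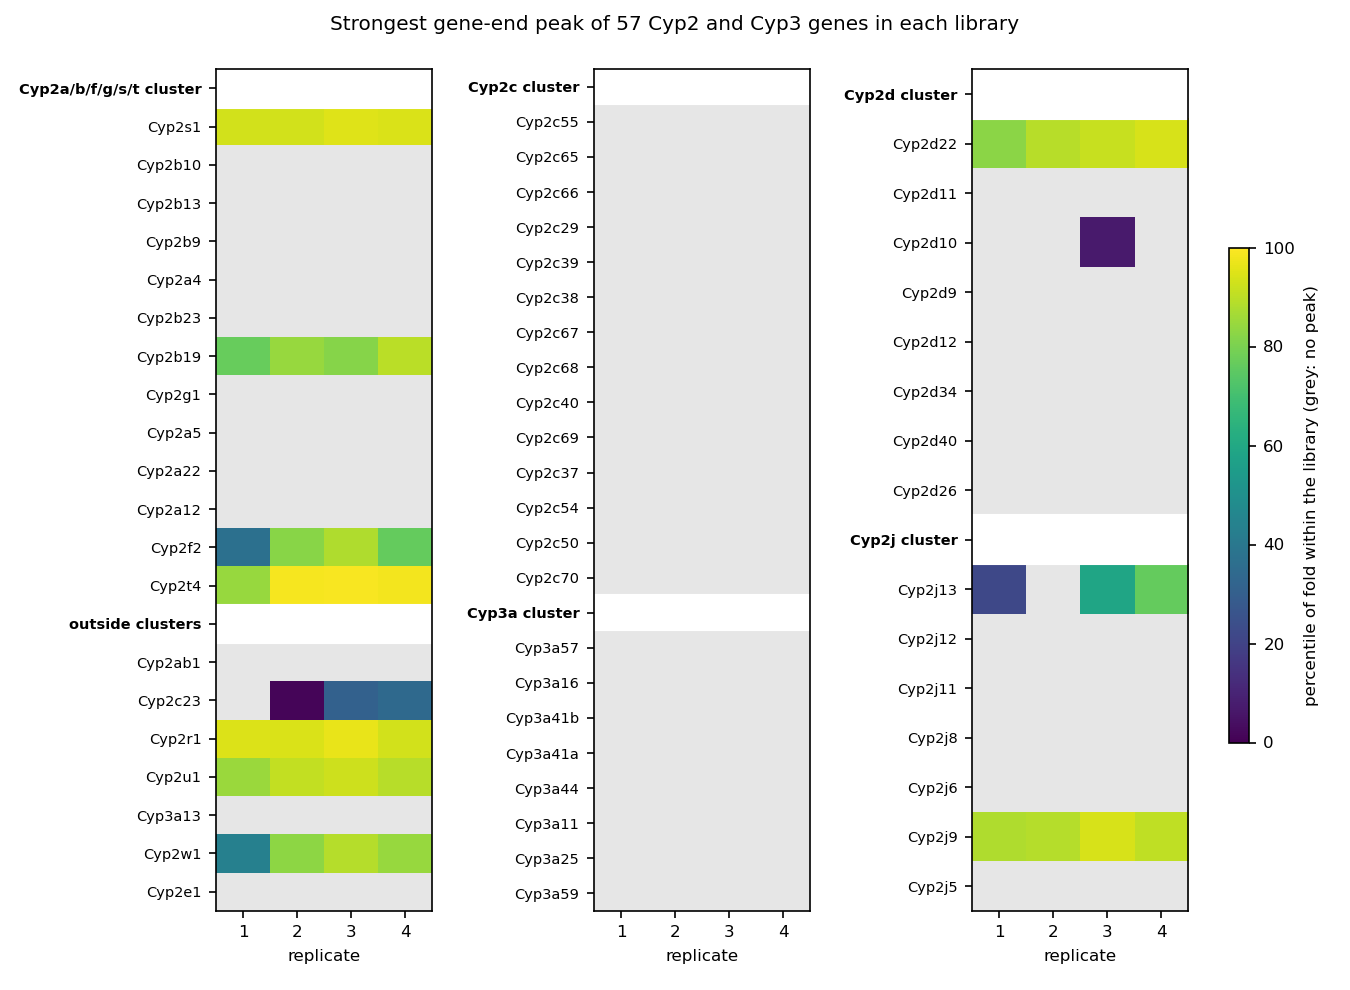
Each row is a gene and each column a library, and colour ranks its strongest gene-end peak among all peaks of that library, as a percentile of fold enrichment (grey, no peak). The Cyp2c and Cyp3a clusters are grey throughout, while 9 genes carry a peak in all 4 libraries.

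Because a gene has 2 ends, the same question was put to gene starts. Promoter sequences from RefSeq (GRCm38.p6, the assembly of mm10) matched 50 of the 57 genes and gave their strand. A start was called open where a peak touched the 300 bases from 250 before to 50 after a transcript start. By this rule 5 of the 50 genes were open in all 4 libraries, against 63.4% of the 17492 genes with a sequence, and 42 were open in none, against 27.8%. The 5 were Cyp2r1, Cyp2s1, Cyp2j6, Cyp2j9 and Cyp2t4. Cyp2f2 and Cyp2w1 had a start peak in 3 libraries, replicates 2, 3 and 4, and Cyp2j13 in replicates 1 and 3.

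The 250 bases before the start are shown for the 5 genes open there in every library and for Cyp2f2, the lung gene with a start peak in 3, to let their composition be compared. They run 5′ to 3′ on the gene's strand, with capitals marking each CpG. They lie on mm10 at chr7:114562973-114563222 (minus strand), chr7:25816526-25816775 (minus), chr4:96553652-96553901 (minus), chr4:96591486-96591735 (minus), chr7:27153464-27153713 (plus) and chr7:27119705-27119954 (plus).
Cyp2r1: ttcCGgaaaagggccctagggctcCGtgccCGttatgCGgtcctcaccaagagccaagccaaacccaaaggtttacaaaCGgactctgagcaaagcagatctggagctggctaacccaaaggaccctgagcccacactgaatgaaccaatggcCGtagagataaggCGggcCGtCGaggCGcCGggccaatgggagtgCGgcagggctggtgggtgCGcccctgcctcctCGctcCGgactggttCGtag
Cyp2s1: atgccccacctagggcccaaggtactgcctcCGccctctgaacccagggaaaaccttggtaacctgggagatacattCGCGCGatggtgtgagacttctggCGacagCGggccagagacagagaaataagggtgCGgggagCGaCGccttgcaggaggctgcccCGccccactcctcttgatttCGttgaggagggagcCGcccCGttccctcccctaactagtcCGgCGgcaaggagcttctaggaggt
Cyp2j6: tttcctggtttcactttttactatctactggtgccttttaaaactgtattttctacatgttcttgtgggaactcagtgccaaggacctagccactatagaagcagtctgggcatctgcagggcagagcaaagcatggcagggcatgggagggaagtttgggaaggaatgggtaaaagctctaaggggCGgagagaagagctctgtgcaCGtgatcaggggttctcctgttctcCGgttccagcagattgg
Cyp2j9: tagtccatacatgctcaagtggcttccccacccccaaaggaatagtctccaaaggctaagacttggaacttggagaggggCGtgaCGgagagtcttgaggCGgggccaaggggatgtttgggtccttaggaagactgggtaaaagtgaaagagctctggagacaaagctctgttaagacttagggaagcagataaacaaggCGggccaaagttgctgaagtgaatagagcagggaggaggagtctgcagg
Cyp2t4: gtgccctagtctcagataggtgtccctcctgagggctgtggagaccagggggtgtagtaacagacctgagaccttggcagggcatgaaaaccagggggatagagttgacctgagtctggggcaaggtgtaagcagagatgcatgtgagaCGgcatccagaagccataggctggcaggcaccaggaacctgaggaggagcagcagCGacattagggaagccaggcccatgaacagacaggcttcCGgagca
Cyp2f2: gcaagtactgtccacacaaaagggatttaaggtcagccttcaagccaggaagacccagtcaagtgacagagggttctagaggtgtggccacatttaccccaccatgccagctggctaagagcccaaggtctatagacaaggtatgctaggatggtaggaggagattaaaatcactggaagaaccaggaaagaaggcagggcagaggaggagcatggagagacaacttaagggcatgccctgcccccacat
Cyp2r1 and Cyp2s1 held 16 and 15 CpG. The others held 4 or fewer, and Cyp2f2 none.

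As a contrast, the same stretch is shown for Cyp2e1, the ethanol-oxidising enzyme of liver, and Cyp3a11, a main drug-metabolising enzyme of mouse liver, neither of which had a gene-end or start peak in any library. They lie at chr7:140763569-140763818 (plus) and chr5:145879855-145880104 (minus). Capitals mark each CpG and each TATAAA.
Cyp2e1: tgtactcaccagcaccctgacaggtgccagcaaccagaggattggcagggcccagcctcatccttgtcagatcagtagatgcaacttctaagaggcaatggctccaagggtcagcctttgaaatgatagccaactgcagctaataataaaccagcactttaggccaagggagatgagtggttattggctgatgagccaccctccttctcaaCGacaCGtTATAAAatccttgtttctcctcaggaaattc
Cyp3a11: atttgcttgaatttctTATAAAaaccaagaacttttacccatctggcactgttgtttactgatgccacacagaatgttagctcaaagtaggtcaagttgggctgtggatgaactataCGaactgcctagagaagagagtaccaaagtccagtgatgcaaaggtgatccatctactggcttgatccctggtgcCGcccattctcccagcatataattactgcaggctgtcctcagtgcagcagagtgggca
In Cyp2e1 the TATAAA began 31 bases before the start, at position -31, and in Cyp3a11 it began at -234. Both held 2 CpG.

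Cyp2r1, on chromosome 7 from 114550123 to 114563048, encodes the main vitamin D 25-hydroxylase. Its start peak was at percentile 94.8, 94.4, 96.8 and 93.1 of all peaks of its library by fold, in replicates 1 to 4. The 4 values were close together, at 94.8 ± 1.53 (SD, n = 4). Peak summits lay at -56 to -25 bases relative to the transcript start, minus meaning upstream. This was the one region open in all 4 libraries within 100 kb of the gene, and its surroundings held few peaks otherwise, 1.29 ± 1.11 per 100 kb.

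Cyp2s1, on chromosome 7 from 25802469 to 25816525, had peaks at both ends. At its start the percentile was 52.0, 79.4, 80.5 and 91.6 in replicates 1 to 4, with replicate 1 lowest and replicate 4 highest (75.9 ± 16.8). The stronger peak lay at the far end, where the percentile was 93.1, 93.4, 95.1 and 94.4 (94.0 ± 0.942). Its summits fell 97 to 196 bases past the annotated end of the gene. The far-end peak touched the window of no other protein-coding gene, and its rank was above that of the start peak in every library. Within 100 kb lay 16 regions open in all 4 libraries, these 2 included, and 4 of them were between Cyp2s1 and Cyp2b10, of which the strongest, at 25842910 to 25845963, was at 89.1 ± 2.41.

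Cyp2f2, on chromosome 7 from 27119955 to 27133660, was weaker and more variable. Over its start the percentile was 71.1, 58.9 and 54.7 in replicates 2, 3 and 4, with no peak in replicate 1. Summits there lay at -66 to 6 bases relative to the start. At the far end all 4 libraries had a peak, at 36.8, 82.3, 77.2 and 76.4, with replicate 1 far below the other three. A region upstream of the gene, at 27117994 to 27119001, was open in all 4 libraries at 75.7, 79.4, 87.9 and 88.2. It thus ranked above the start peak in each library that had one. In replicate 3 it reached into the 1 kb window and was the strongest gene-end peak, whereas replicate 1 was called open through the far end alone. Without replicate 1, the mean of the strongest gene-end peak was 82.2, against 70.8 ± 23.2 with it. A pair of further regions upstream, at 27109717 to 27110569 and 27111151 to 27111553, were also open in all 4 libraries, at 45.7 ± 13.9 and 63.7 ± 8.66.

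Cyp2t4, next to Cyp2f2 at 27153714 to 27158564, had a start peak at 84.7, 89.1, 90.9 and 90.8 in replicates 1 to 4 (88.9 ± 2.91). A stronger peak touched its far end in replicates 2, 3 and 4, at 98.6 ± 0.356 (SD, n = 3), but that peak had its summit 1498 to 1500 bases past the gene and also touched an end of Egln2. The start peak touched no other gene's window.

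Cyp2b19, an arachidonic acid epoxygenase of skin keratinocytes, was open only at its far end. The peak there was at 76.7, 84.4, 81.8 and 89.5 (83.1 ± 5.31), with summits 669 to 741 bases outside the gene, and no library had a peak at its start.

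In the Cyp2j cluster, whose enzymes make epoxides of arachidonic acid, a pair of neighbouring genes had open starts. Cyp2j9 was at 88, 88.8, 93.9 and 90.5 (90.3 ± 2.62), with summits at -221 to -164 bases relative to the transcript start. Cyp2j6 was at 87.9, 92.2, 94.2 and 92.0 (91.6 ± 2.66), with summits 29 to 68 bases after it. Both were high in every library and their values overlapped. The Cyp2j6 start, at 96553651, lies well inside the annotated span of 96516138 to 96564305, so the gene had no gene-end peak. Cyp2j13, the outermost gene, was at 21.8 and 58.9 over its start in replicates 1 and 3 and had none there in the other libraries.

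**Figure D2:**
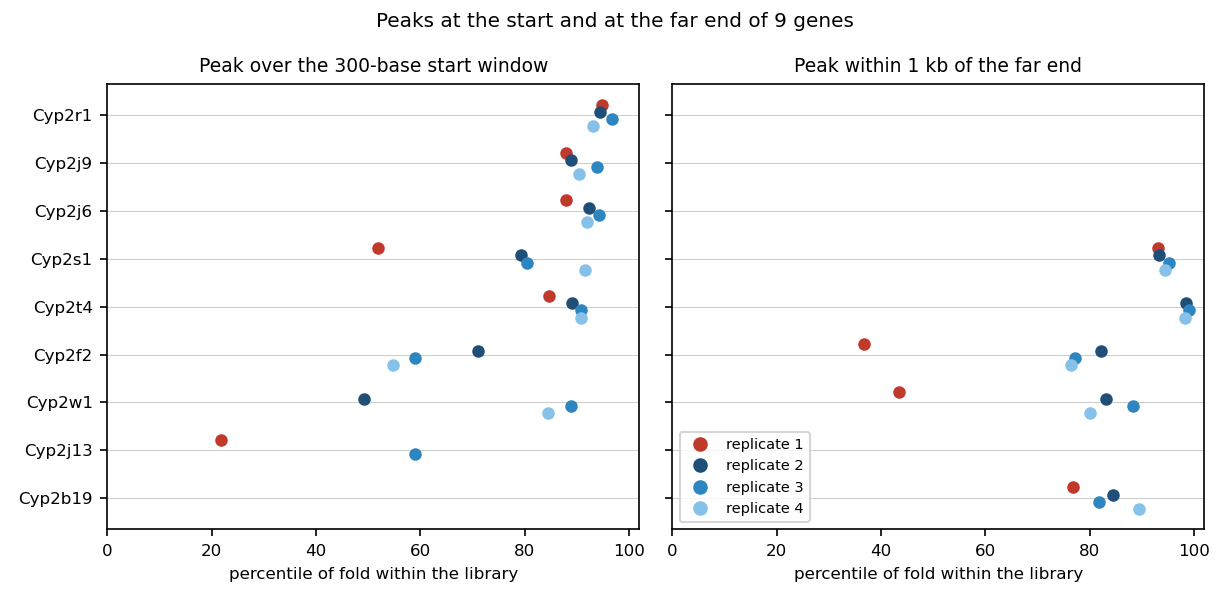
Points give, for each of 9 genes and each library, the percentile by fold of the peak over the start (left) and within 1 kb of the far end (right), and a missing point means no peak. Cyp2r1, Cyp2j9 and Cyp2j6 have 4 points at the start and none at the far end, and Cyp2b19 the reverse. Replicate 1 lies far left of the others at the start of Cyp2s1 and at the far ends of Cyp2f2 and Cyp2w1.

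The other 3 open genes lay in the Cyp2d cluster or alone. Cyp2u1, a hydroxylase of long-chain fatty acids on chromosome 3 from 131290491 to 131304157, was at 85, 90.9, 92.5 and 89.1 (89.4 ± 3.22), with summits at -912 to -878 bases relative to its upper annotated end, that is, inside the gene. Cyp2d22, a member of the subfamily that in humans holds the drug-metabolising CYP2D6, lies on chromosome 15 from 82370527 to 82380260. It was at 82.7, 89.4, 91.4 and 93.8 (89.3 ± 4.74), with summits 87 to 132 bases outside its upper end. For neither gene was a strand used here.

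Cyp2w1, on chromosome 5 from 139352616 to 139359607, is best known from fetal gut and colon tumours. Peaks touched the window at its start at 28.5, 80.5, 88.8 and 84.5 in replicates 1 to 4, and that at its far end at 43.5, 83.0, 88.4 and 80. Replicate 1 was far below the others at both ends. In replicates 3 and 4 the start was covered by a broad peak of 4962 and 5416 bases with its summit 2942 and 3150 bases downstream, and in replicates 1 and 2 the strongest gene-end peak also touched an end of the neighbouring 3110082I17Rik. Cyp2w1 also had the most peaks around it of all members, 37.0 ± 11.8 per 100 kb.

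Some genes without a gene-end peak in all 4 libraries held open sites inside. Cyp2c23, an arachidonic acid epoxygenase of kidney and liver, had weak gene-end peaks, none above percentile 34.3. Within the gene, however, a region at 44007616 to 44009995 was at 97.7, 95.7, 95.6 and 93.5 (95.6 ± 1.75). It was the highest of the 3 regions open in all 4 libraries inside that gene, and replicate 1 was the highest library there. Cyp2b10, the classical target of the receptor CAR in liver, had no gene-end peak but held a pair of regions open in all 4 libraries, at 25901419 to 25903452 (89.9 ± 1.88) and 25905275 to 25908071 (89.2 ± 3.30). Cyp3a13 held 1, at 137909370 to 137910463 (68.7 ± 9.89), and Cyp2c38 and Cyp2c39, which overlap, shared 1 at 39412509 to 39414279 (78.5 ± 22.0).

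The surroundings of the genes were then compared. Peaks with a summit within 100 kb of a gene, its body included, were counted per 100 kb searched. The median over the 57 members was 1.36, 2.16, 2.21 and 1.61 in replicates 1 to 4, and the median over all genes was 6.93, 10.7, 12.8 and 11.5. The members lay below all genes in every library, at a mean of 1.83 ± 0.418 against 10.5 ± 2.51 (SD, n = 4). Of the 57 members, 47 lay below the median of all genes, and 21 (36.8%) had no region open in all 4 libraries within 100 kb, where 10.3% of all genes had none. No peak at all lay within 100 kb of 12, 7, 6 and 8 members in replicates 1 to 4, and of 6.93%, 5.08%, 5.92% and 5.06% of all genes. Neighbouring members of a cluster search overlapping DNA, so these counts are not of separate surroundings.

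Density varied widely among members. It ran from 0.102 to 37.0 per 100 kb. The lowest were Cyp2c40, Cyp2b13 and Cyp3a25, at 0.102, 0.106 and 0.108 per 100 kb. The highest were Cyp2w1, Cyp2s1 and Cyp2t4, the last at 21.6 ± 9.01 and Cyp2s1 at 23.8 ± 6.86. Open members had a median of 14.9 and members without a gene-end peak in any library 1.5. Over all protein-coding genes the same medians were 14.5 and 1.35, so within each class the members were near the other genes. The classes overlapped: Cyp2r1 and Cyp2j9 had open starts at densities of 1.29 and 1.34, and Cyp2d11 and Cyp2b10 had no gene-end peak at densities of 13.3 and 11.5.

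There were 5 clusters of 3 or more members, with 50 of the 57 genes. The Cyp2a/b/f/g/s/t cluster on chromosome 7 spans 25802469 to 27158564 and holds 13 members, 4 of them open in all 4 libraries. The Cyp2c cluster on chromosome 19 (39006940 to 40187286) had 0 of 14 open, the Cyp3a cluster on chromosome 5 (145345149 to 146114978) 0 of 8, the Cyp2d cluster on chromosome 15 (82370527 to 82794452) 1 of 8 and the Cyp2j cluster on chromosome 4 (96042660 to 96664171) 1 of 7. Of the 7 lone genes 3 were open in all 4. The other lone genes had densities of 17.4 ± 4.29 (Cyp2c23), 8.52 ± 2.67 (Cyp2ab1), 6.51 ± 2.55 (Cyp2e1) and 4.41 ± 0.541 peaks per 100 kb (Cyp3a13).

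Inside the spans peaks were sparse, and outside most of them they were not. Over all 5 spans together the density was 1.17, 2.14, 2.09 and 2.16 peaks per 100 kb in replicates 1 to 4 (1.89 ± 0.480). In the 100 kb on either side of each cluster it was 6.10, 11.9, 14.9 and 12.8 (11.4 ± 3.77). The flanks were denser than the spans in each library, without overlap between the 4 values of each kind. The contrast was seen in the chromosome 7 cluster (3.95 ± 1.25 inside, 29.3 ± 10.8 outside), the Cyp2d cluster (1.95 ± 0.226 and 15.1 ± 4.97) and the Cyp2c cluster (0.762 ± 0.285 and 8.25 ± 2.18). It was small beside the Cyp2j cluster (0.925 ± 0.357 and 2 ± 0.577) and the Cyp3a cluster (0.747 ± 0.730 and 2.5 ± 1.29), whose flanks are themselves poor in peaks. Non-member genes within 100 kb of a member were open at a gene end in 53 of 74 cases (71.6%), close to the 66.7% of all genes. None of the 6 non-member genes within the spans was.

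**Figure D3:**
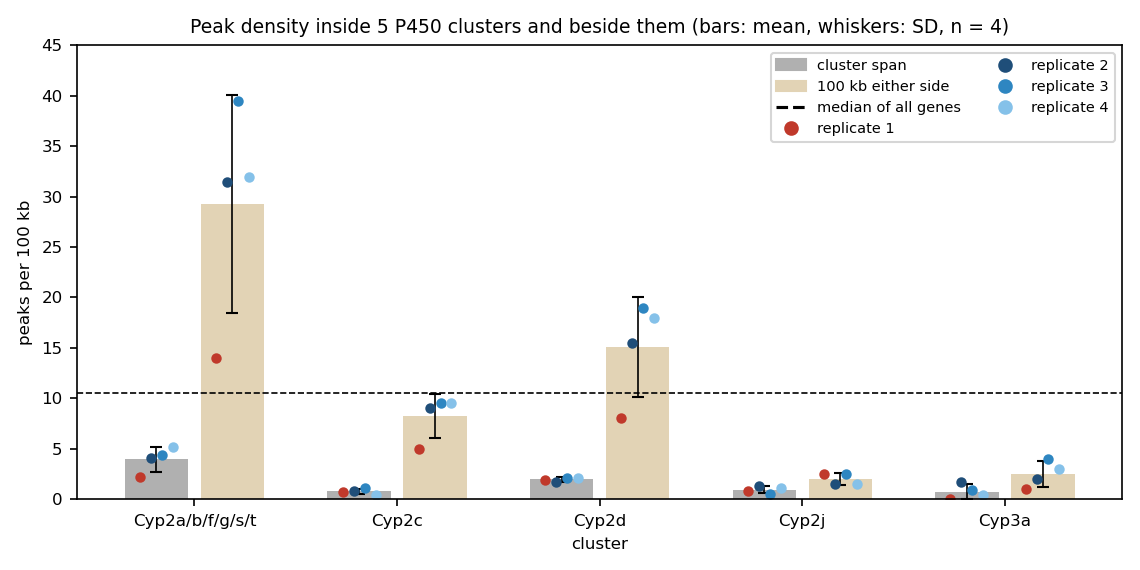
Bars give the mean number of peaks per 100 kb inside each cluster and in the 100 kb on either side, whiskers the SD over 4 libraries and points the libraries, with the dashed line at 10.5, the mean over libraries of the median of all genes. All 5 spans lie below the line in every library, and flanks rise above it in all 4 libraries beside the chromosome 7 cluster and in replicates 2 to 4 beside the Cyp2d cluster.

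Within the chromosome 7 cluster the peaks were gathered at the margins. Of its 18 regions open in all 4 libraries, 8 lay at or between Cyp2s1 and Cyp2b10 on one side and 7 from 27092034 onwards, around Cyp2f2 and Cyp2t4, on the other. The other 3 lay between 26772191 and 26988092, the first at the far end of Cyp2b19. A stretch of 277.8 kb with Cyp2b13 and Cyp2b9 held no peak of any library. Cyp2a5, which hydroxylates coumarin, and Cyp2g1, an enzyme of olfactory tissue, had none at their ends.

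The other clusters also held long stretches without a peak of any library. The longest was 289.7 kb in the Cyp2c cluster, with all of Cyp2c68, Cyp2c40 and Cyp2c69, and 273.4 kb in the Cyp3a cluster, with Cyp3a44, Cyp3a11 and Cyp3a25. It was 229.9 kb in the Cyp2j cluster, around Cyp2j11, and 161.1 kb in the Cyp2d cluster, around Cyp2d40. In the Cyp2d cluster a pair of regions between Cyp2d10 and Cyp2d9, at 82416525 to 82417962 (91.4 ± 2.62) and 82437923 to 82438751 (84.1 ± 1.10), was open in every library and touched no gene.

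The Cyp3a cluster held 0, 13, 7 and 3 peaks in replicates 1 to 4, and none of its 20 merged regions was open in all 4. Of these, 17 came from a single library, 11 of them from replicate 2, whose peaks lay within Cyp3a41b and between it and Cyp3a41a. The peaks were weak, with medians at percentile 30.0, 7.39 and 45.7 in replicates 2, 3 and 4. Over all 5 clusters, 26 of 163 regions (16%) were open in all 4 libraries, where 21.5% of all regions in the genome were.

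**Figure D4:**
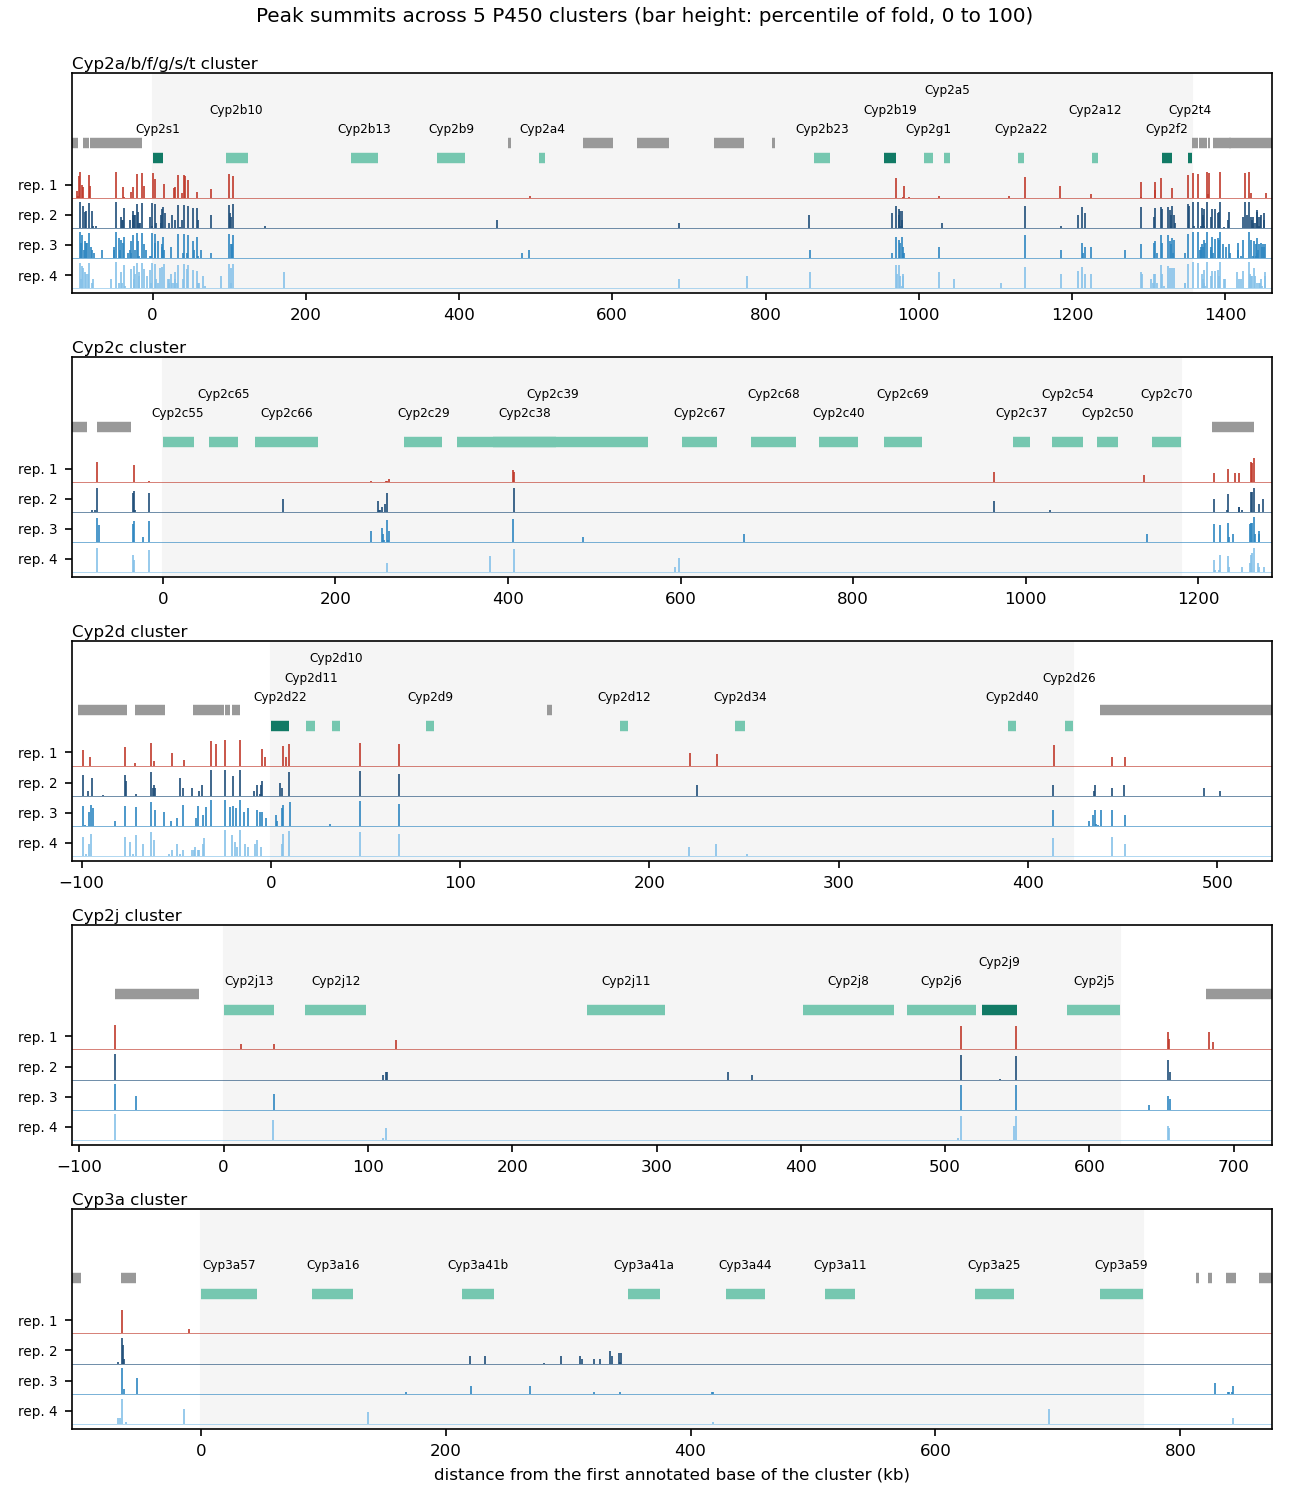
Each panel is a cluster (grey background) with 100 kb on either side, plotted as distance in kb from its first annotated base. Boxes are genes (dark green, members open in all 4 libraries; light green, other members; grey, other genes), and bars are peak summits with heights from 0 to 100 by percentile of fold. The chromosome 7 cluster has peaks at both margins and few in the middle, and the 13 peaks of replicate 2 in the Cyp3a cluster lie within Cyp3a41b and between it and Cyp3a41a.

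Many members are near copies, which can share sequencing reads. Among the 50 genes with a promoter sequence, the 300-base window was at least 80% identical to that of another member for 25 genes and at least 95% for 8. The closest were Cyp2b9 and Cyp2b13 at 99.3%, Cyp2a4 and Cyp2a5 at 98.0%, Cyp3a41a and Cyp3a41b at 97.3% and Cyp3a25 and Cyp3a59 at 96.3%. None of the 8 had a gene-end peak called in any library. The median identity to the closest other member was 57% for the 7 open genes with a sequence and 82% for the 41 without a gene-end peak. The sources used here do not give how reads with several matches were handled. The part of such reads in the missing peaks was not tested. Without the 8 genes, 37 members had no gene-end peak, against 22.2% of all genes, and the same 9 were open, against 66.7%.

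The promoters of the members were also poor in CpG. In the 250 bases before the start the members had a median of 1.5 CpG and all genes 11. Of 36 members with 0 to 2 CpG, 2 were open at a gene end in all 4 libraries, Cyp2f2 and Cyp2b19, and 14.7% of all genes in that range were. Of 12 members with 3 to 6 CpG, 3 were open, Cyp2t4, Cyp2j9 and Cyp2w1, and 47.9% of all genes in that range were. Cyp2r1 and Cyp2s1, the only members with 15 or more, were both open, as were 93.6% of all such genes. By gene ends, members thus fell below other genes within both lower ranges, though with few open genes in each. The 8 genes at least 95% identical to another all lay in the range of 0 to 2 CpG. They were counted there as not open. A gene-end peak can lie away from the start, where CpG was counted. Cyp2b19 had no start peak, and Cyp2f2 and Cyp2w1 had none in replicate 1. Cyp2j6, with 3 CpG and a start open in all 4 libraries, was counted here as not open.

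**Figure D5:**
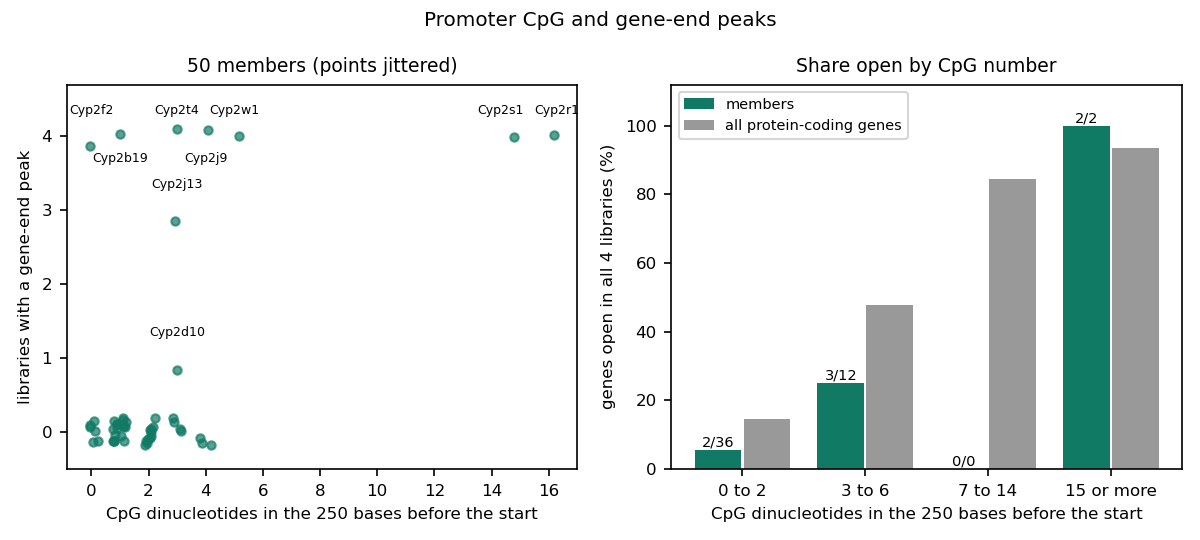
Left, each point is 1 of 50 members, placed by CpG number in the 250 bases before its start and by the number of libraries with a gene-end peak (points spread slightly for view). Right, bars give the share open in all 4 libraries for members, with counts, and for all protein-coding genes. Members with 0 to 2 CpG were open at a gene end in 2 of 36 cases.

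A set of 4 short motifs was searched on both strands of the same 250 bases, over 53 promoters of the members and 21263 of all genes. TATAAA was found in 43.4% of member promoters and 11.6% of all. It was in 22 of the 43 promoters of members without a gene-end peak and in none of the 7 of open members. The 43 count near copies separately and include Cyp2j6, whose start was open and lacked TATAAA. The same split over all genes is not given here. Members without a gene-end peak also had a lower GC content, with a median of 44.4%, against 58% in open ones. GGGCGG, the GC box, was found in 11.3% of member promoters and 42.6% of all, and Cyp2s1 held 3. CCAAT was found in 37.7% and 35.4%, in 1 of the 7 promoters of open members and in 19 of the 43 of members without a gene-end peak. Cyp2r1 and Cyp2e1 each held a pair. GCGTG, the core bound by the aryl hydrocarbon receptor with its partner ARNT, was found in 15.1% and 33.8%, with a match in Cyp2j9 among the sequences shown. GGGCGG and GCGTG each contain a CpG, and a match gives only the letters.

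The rest of the pathway was read against the 66.7% of all genes that were open in all 4 libraries and the 22.3% with no gene-end peak. Of 41 P450 genes of other families, 18 had a gene-end peak in all 4 libraries and 15 in none, a lower and a higher share than over all genes, and their median density was 6.70 ± 0.965 peaks per 100 kb (SD, n = 4), above the members in each library. Family 4, also clustered, had 9 of 20 open. Cyp46a1, the cholesterol hydroxylase of brain, was highest at 99.7 ± 0.0934, before Cyp20a1 and Cyp39a1, both at 97.3 on average. Cyp1a1 and Cyp1a2, the best known targets of the aryl hydrocarbon receptor, had a gene-end peak in 1 and 0 libraries. Cyp7a1, the rate-limiting enzyme of bile acid synthesis, had none.

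Proteins that pass electrons to P450 or bind it were open in 3 of 5 cases, with Cyb5a, cytochrome b5, at 99.7 ± 0.0760, Pgrmc2 at 99.6 ± 0.0992 and Pgrmc1 at 94.1 ± 2.23. Por, the P450 oxidoreductase, and Cyb5r3 had a gene-end peak in 3 libraries. Receptors and transcription factors that act on P450 genes were open in 16 of 19 cases, with Nfe2l2 at 99.8 ± 0.0965, Cebpa at 99.1 ± 0.190 and Foxa3 at 98.4 ± 1.12. Nr1i3, encoding CAR, was open in 3 libraries, at 99.7, 99.8 and 54.7 in replicates 2, 3 and 4. The values of replicates 2 and 3 were also those of Apoa2, and whether both genes share a peak was not examined. Hnf4a and Nr3c1 had no peak at an annotated end in any library. As with Cyp2j6, a gene end can miss a start inside the annotated span.

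Phase 2 enzymes, which conjugate the products, were open in 14 of 22 cases, near the 66.7% of all genes, led by Tpmt at 99.9 ± 0.0290, Gstm1 at 99.2 ± 0.200 and Nqo1 at 98.6 ± 0.298. The 6 with no gene-end peak were Gsta1, Gsta3, Sult1d1, Ugt1a1, Ugt2b34 and Ugt2b5. Of 5 flavin monooxygenases only Fmo5 was open in all 4, at 91.8 ± 3.44, and Fmo1 and Fmo4 had no gene-end peak. Of 8 club cell genes 4 were open, with Scgb1a1, the main secretory protein of these cells, at 93.5 ± 2.65, Cbr2 at 88.4 ± 16.5 and Muc5b at 83.9 ± 7.93, and Scgb3a2 had no peak. Cyp2f2, at 70.8 ± 23.2 by its strongest gene-end peak, lay below those 3 on average, within a wide spread. It lay above Sec14l3 (62.4) and Scgb3a1 (40.0), which had a peak in replicates 2 to 4 only. Bpifa1 (25.2), which had one in replicate 1 only, was lower too. These means thus cover different libraries, and without replicate 1 Cyp2f2 was at 82.2.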

How the data were processed

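ATAC-seq peaks from 4 libraries of 1 group (wild-type lung, embryonic day E15.5) were analysed. Per the submitters' processing notes, the tools included MACS3 3.0.1 and Bowtie2 2.5.2, with SAMtools 1.18 and bedtools 2.31.0, and FastQC 0.12.1, Trim Galore and deepTools. The build was mm10. Their roles, parameters, duplicate removal and the Tn5 shift are not given in the sources used here. The authors deposited 1 narrow peak list per library, not pooled. The deposited fold is the ratio of a summit to background and was used only to rank peaks within a list. The deposited −log10 q values served as a filter in 1 alternative, and the deposited −log10 p values and score were not used. Depth in reads was not analysed here, and peak number need not follow it. The lowest −log10 q of a list was 1.32 to 1.87.

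Only assembled chromosomes (19 autosomes, X, Y) were used. Gene positions and promoter sequences came from RefSeq tables of GRCm38.p6. Windows, percentiles and densities are defined in the report. A cluster was 3 or more members with gaps under 500 kb. No test was run, since there is 1 group. Counts are set beside all protein-coding genes. Functions were tested on simulated data. Python 3.11.15, pandas 2.3.3 and Biopython 1.88 were used. Promoter identity came from global alignment. The design planned 1 kb gene ends as the main rule, with other gene-end windows as alternatives. Start windows and the copy filter were added after seeing the data. The members and lists were chosen with earlier results of these data known. Named genes were Cyp2f2, Cyp2s1, genes open in every library, the 5 highest of those open in 1 to 3, lone genes, the 3 densest and 3 sparsest, and from each list up to 3 highest and up to 3 with no peak. Cyp2j6, Cyp2b10, Cyp2g1, Cyp2a5, the near copies, the genes named with the longest gaps or as contrasts, and other list genes were named after their values were seen. Markers counted but not described gene by gene were those of endothelium (3 of 4 open in all 4 libraries), blood and immune cells (1 of 4), heart muscle (2 of 4) and neural cells (2 of 3). Over all genes the share was 66.7%.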

Additional observations from a re-analysis of the deposited data

Results flagged for a closer look

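Among 17 quantities checked over the 4 libraries, 3 had 1 library far from the others, and in each it was replicate 1 and it was low. Chance flags about 1 in 20 such groups. The gene-end percentile of Cyp2w1 was 43.5 in replicate 1 and 83.0 to 88.8 in the others. That of Cyp2t4 was 84.7 in replicate 1 and 98.3 to 99.0 in the others, which reached it through the peak shared with Egln2. The density of peaks inside the 5 clusters was 1.17 per 100 kb in replicate 1 and 2.09 to 2.16 in the others. Replicate 1 also had the shortest peak list, and the part of list length in these values was not tested.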

How the results depend on the processing

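The gene-end counts moved little. With other windows, stricter calls, lists of equal length, the summit required in the window, no peaks wider than 10 kb, 3 of 4 libraries or 1 library left out, 7 to 11 members were open and 40 to 47 had no peak. The report gives each count beside that of all genes. The start windows gave 5 open genes, of the 50 with a sequence. Leaving out each library gave 9 to 10 open, 45 to 46 with no peak, a member density of 1.71 to 1.99, a cluster density of 1.80 to 2.13, and percentiles of 93.6 to 94.3 for Cyp2s1 and 65.1 to 82.2 for Cyp2f2. With a −log10 q of 5 or more, the median density around members was 0.832 (1.83 otherwise) and that inside clusters 0.879 per 100 kb (1.89 otherwise), and with lists of equal length 1.3 and 1.35. Both settings hold fewer peaks by construction. The Cyp2s1 percentile was then 88.3 and 92.0, against 94.0. For Cyp2f2 it was 51.4 and 64.8, against 70.8 ± 23.2. No paired analysis was possible because there was 1 group. Depth limits what a missing peak shows: it was not called, which does not show closed DNA.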
